A study of Mus musculus with 12 samples.

Results

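InjuredHeps1 is the name that the authors gave to one of the injured hepatocyte populations in livers of mice fed DDC, and it was found here by that name in the deposited annotation of single cells. The name covered 998 of 6573 annotated hepatocytes, and of 14807 annotated cells when the myeloid cells of the study are counted too. The cells came from 8 of the 9 hepatocyte libraries that had annotated cells. The annotation gave each cell a library, a batch, a cluster number, a cell type name and a position on a map. No value per gene was used, so the genes taken as markers of InjuredHeps1 were not analysed here. They were the hepatocyte identity genes Alb and Ttr, which encode plasma proteins and do not mark injury, and 2 others. Hmox1 encodes the heme-degrading enzyme heme oxygenase, and Sqstm1 encodes the autophagy receptor p62. The name was therefore not checked against its markers. UMIs, genes and the mitochondrial percent per cell were likewise not analysed here.

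DDC is a diet that inhibits the last step of heme synthesis, so that porphyrins build up in hepatocytes and plug small bile ducts. Hepatocytes in DDC-fed livers are known for swelling and for protein deposits of keratins and p62 called Mallory-Denk bodies. Some hepatocytes in such livers begin to express the biliary transcription factor Sox9, and the study follows these under the name LPLC, with PreLPLCs, PostLPLCs1 and PostLPLCs2 named as stages around them. InjuredHeps1 and InjuredHeps2 were the authors' names for injured hepatocytes outside those stages, NormalHeps for normal hepatocytes and ProliHeps for proliferating ones.

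The CLO pool was a 10X Chromium library of perfused hepatocytes whose title adds a treatment called CLO, which the labels do not spell out. The pool without CLO was a 10X library made in the same way. Each 10X pool joined cells of 2 DDC-fed WT mice (day 7) with cells of 2 Rosa26-mTmG mice on normal diet (day 0), and the strain of both pools is given as C57BL/6J;129S6/SvEvTac. The sources used here do not give the diet of single cells in a pool, so an InjuredHeps1 cell of a pool could not be assigned to a DDC-fed or a normal mouse. The Smart-seq2 libraries held single hepatocytes of Sox9-EGFP mice, in which green fluorescence marks cells that use Sox9, of strain FVB/N;129S6/SvEvTac, except that library Z104 has 129S7 in place of 129S6. Libraries L4, Z103 and Z104 (replicates 1, 2 and 3) were of day 7 of DDC, L3 and L5 of day 3 and day 7 together, Z102 of day 0 and day 7 together, and Z101 of day 0. Cells of injured Sox9-EGFP livers were sorted by size, granularity and green fluorescence. The titles give 1 mouse on normal diet for the Smart-seq2 libraries and 2 mice for all DDC days, and they do not tie mice to libraries. The sources used here give no ages.

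Precision rests on numbers of cells: the CLO pool had 1446, the pool without CLO had 4800, and Smart-seq2 libraries had 26 to 82 each. Shares carry exact Clopper-Pearson 95% intervals, which cover counting error alone and say nothing of the spread between mice. Each 10X arm was 1 library in a batch of its own, so no test between arms was possible, and CLO and batch cannot be told apart. Of the InjuredHeps1 barcodes in the pool without CLO, 0 also stood in the CLO pool and 2 in the myeloid pool, and of those in the CLO pool 0 stood in either. Over all annotated cells, the 10X hepatocyte pools shared 1 barcode. The pool without CLO shared 6 with the myeloid pool, and the CLO pool shared 2 with it.

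InjuredHeps1 cells took a larger share of the pool without CLO than of any other library, and the interval of library Z102 alone reached up to that share. The upper bound of L5, 19.6%, lay within the counting interval of that pool. The Smart-seq2 libraries differed from the pools in platform, strain and sorting, and all but Z102 also in the diet days they held. The part of these in the shares of InjuredHeps1 cells was not tested. They were 18 of 1446 hepatocytes in the CLO pool (1.24%, 0.739 to 1.96) and 965 of 4800 in the pool without CLO (20.1%, 19.0 to 21.3), a CLO to no CLO ratio of 0.0619 (Katz 95% interval 0.0390 to 0.0983). In the 3 day 7 Smart-seq2 libraries they were 3 of 82 cells in L4 (3.66%, 0.761 to 10.3), 2 of 47 in Z103 (4.26%, 0.520 to 14.5) and 2 of 45 in Z104 (4.44%, 0.543 to 15.1). The day 0 library Z101 held 0 of 43 cells, which allows a share of up to 6.98% at a limit of 3 cells and 8.22% at the exact upper bound. The day 7 mean of 4.12% ± 0.410 (SD, n = 3 libraries of at most 2 mice) lay under both limits, so a difference between day 7 and day 0 was not detectable with this number of cells. That SD rests on 2 or 3 cells per library and is narrower than the counting interval of each. Sorting is described for cells of injured livers, so day and sorting may not be told apart, whatever the number of cells. No test was made with 1 library at day 0. Within batch 1 alone, which held the day 0 library, the day 7 libraries Z103 and Z104 averaged 4.35% against the 0 of 43 cells. L3 held 2 of 39 InjuredHeps1 cells (5.13%, 0.627 to 17.3) and L5 held 1 of 26 (3.85%, 0.0973 to 19.6). Within Smart-seq2 batch 1, which held all Z libraries, InjuredHeps1 were 9 of 180 cells (5%, 2.31 to 9.28), and within batch 2, which held all L libraries, 6 of 147 (4.08%, 1.51 to 8.67).

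**Figure D1:**
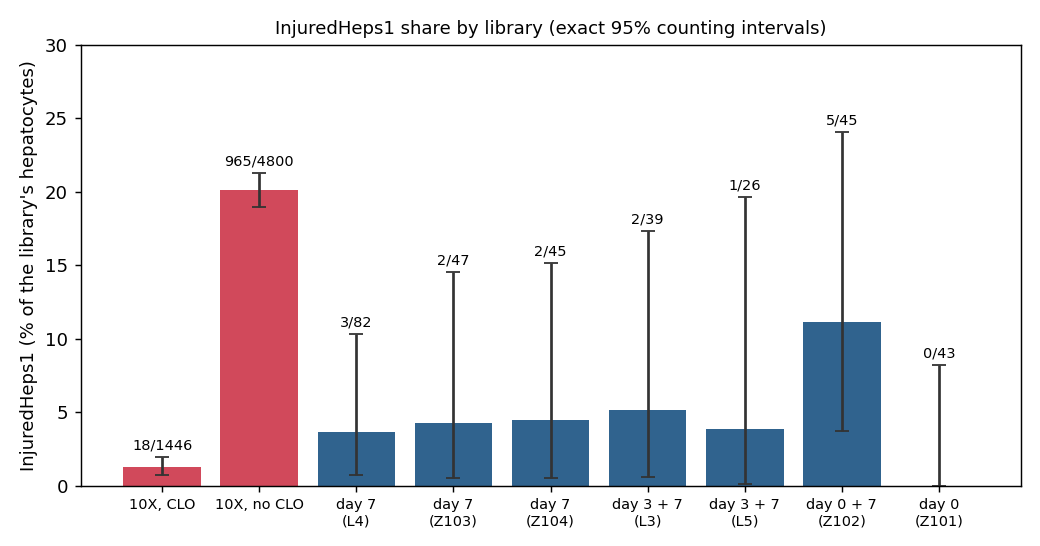
Percent of each library's hepatocytes named InjuredHeps1, with exact 95% counting intervals and the cell numbers above each bar; red bars are the 10X pools and blue bars the Smart-seq2 libraries by diet day. The bar of the pool without CLO, at 20.1%, stands above the upper bound of every other library except Z102, while the intervals of the Smart-seq2 libraries overlap one another. Red and blue bars also differ in platform, strain and sorting, and, except for Z102, in the diet days that a library held.

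Set against the other hepatocyte types of the same library, InjuredHeps1 were scarce in the CLO pool relative to both normal and other injured cells. The CLO pool held 0.0490 InjuredHeps1 cells per NormalHeps cell (18 against 367) and the pool without CLO held 0.808 (965 against 1194). Of InjuredHeps1 and NormalHeps combined, InjuredHeps1 were 4.68% (2.79 to 7.29) in the CLO pool and 44.7% (42.6 to 46.8) in the pool without CLO. How many cells of each pool came from normal-diet mice is not given, and the part of that in the balance with NormalHeps was not tested. Relative to InjuredHeps2, the CLO pool held 0.116 InjuredHeps1 cells per InjuredHeps2 cell (18 against 155) and the pool without CLO held 1.26 (965 against 767). Of the injured cells of both types, InjuredHeps1 were thus 10.4% (6.28 to 15.9) in the CLO pool and 55.7% (53.3 to 58.1) in the pool without CLO. The balance of the injured types therefore differed between the pools beyond counting error, with InjuredHeps2 the more numerous in the CLO pool and InjuredHeps1 in the pool without CLO.

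Over all Smart-seq2 libraries, 15 of 327 cells were InjuredHeps1 (4.59%, 2.59 to 7.45), and the balance with InjuredHeps2 was 15 to 34 cells. That sum hid libraries that went different ways. In L4 there were 3 InjuredHeps1 and 18 InjuredHeps2 cells, while in Z102 there were 5 InjuredHeps1 cells and 1 InjuredHeps2 cell. The day 0 library Z101 held 0 InjuredHeps1 cells beside 28 NormalHeps and 9 InjuredHeps2 cells.

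InjuredHeps1 was made of 4 of the authors' 25 hepatocyte clusters, and cluster 3 was the main one. In the pool without CLO, cluster 3 held 470 of the 965 cells (48.7%, 45.5 to 51.9), cluster 9 held 318 (33.0%, 30.0 to 36.0), cluster 17 held 106 (11.0%, 9.08 to 13.1) and cluster 19 held 71 (7.36%, 5.79 to 9.19). NormalHeps of that pool were spread over 8 clusters, the largest with 53.1% of the type, and InjuredHeps2 over 2 clusters, the larger with 66.5%. InjuredHeps1 thus had more clusters than InjuredHeps2 and fewer than NormalHeps, while its largest cluster held a smaller part of the type than theirs did. The types differed in cell number, and the part of that in these counts was not tested.

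The few InjuredHeps1 cells of the CLO pool had a larger part in cluster 17 than those of the pool without CLO. The 15 Smart-seq2 cells, without CLO, had the same percent there, on another platform and with other strain and sorting. Their interval (11.8 to 61.6) overlapped those of both pools, and the part of CLO was not tested. That cluster held 6 of 18 cells in the CLO pool (33.3%, 13.3 to 59.0) against 106 of 965 in the pool without CLO (11.0%, 9.08 to 13.1). These intervals did not overlap, by a narrow margin. They did overlap when only cells lying among their own kind on the map were kept, with 22.2% (2.81 to 60.0) of 9 cells in the CLO pool and 11.5% (9.52 to 13.8) of 911 in the pool without CLO. Cluster 3 held 8 of 18 cells in the CLO pool (44.4%, 21.5 to 69.2), cluster 9 held 3 (16.7%, 3.58 to 41.4) and cluster 19 held 1 (5.56%, 0.141 to 27.3), each with an interval that overlapped that of the pool without CLO. Among the 15 Smart-seq2 cells, 5 were in cluster 3, 2 in cluster 9, 5 in cluster 17 (33.3%, 11.8 to 61.6) and 3 in cluster 19. All 3 InjuredHeps1 cells of L4 were in cluster 17 and both of Z103 were in cluster 3, while Z102 had 3 in cluster 3, 1 in cluster 9 and 1 in cluster 19. Each of the 4 clusters was taken mostly from the pool without CLO, from 90.6% (83.8 to 95.2) of cluster 17 to 98.5% (96.4 to 99.5) of cluster 9. That pool gave 73.0% of all annotated hepatocytes and 68.8% of those not named InjuredHeps1. Cell state and library cannot be told apart in these clusters.

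**Figure D2:**
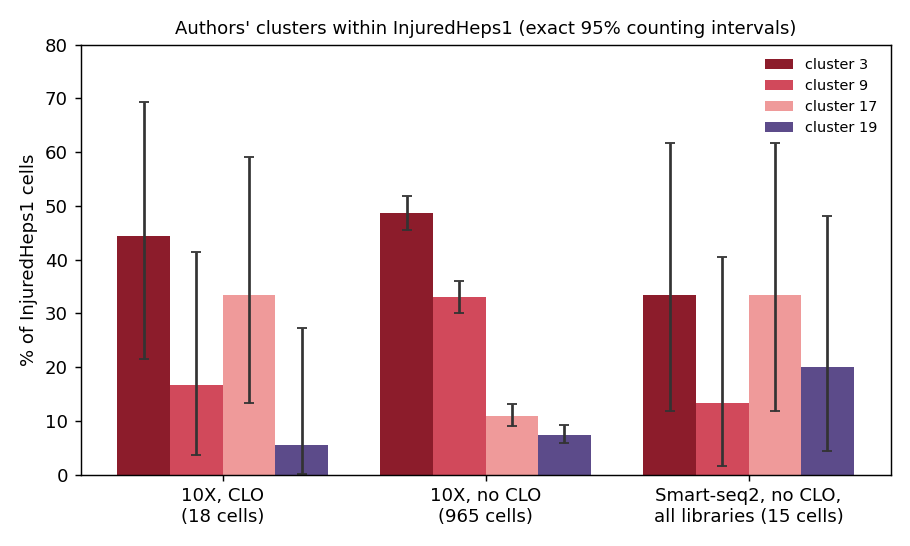
Percent of InjuredHeps1 cells in each of the authors' clusters 3, 9, 17 and 19, for the CLO pool, the pool without CLO and all Smart-seq2 libraries summed, with exact 95% counting intervals. Cluster 17 holds 33.3% of the 18 CLO cells, 11.0% of the 965 cells of the pool without CLO and 33.3% of the 15 Smart-seq2 cells. The wide intervals of the first and last set reflect their small cell numbers.

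On the authors' map, a UMAP made from the same data as the clusters, the InjuredHeps1 clusters lay between NormalHeps on one side and PostLPLCs2 and InjuredHeps2 on the other. The values below describe that map and are not tested, since positions and names share their source. In the pool without CLO, the centre (median position) of InjuredHeps1 lay 4.03 map units from that of NormalHeps and 4.41 from that of InjuredHeps2. The nearest centre was that of PostLPLCs2, at 3.16 map units, and those of LPLCs (8.22) and ProliHeps (12.5) were the farthest. The InjuredHeps1 cells themselves lay at a median of 1.05 map units from their own centre, against 2.02 for NormalHeps and 1.10 for InjuredHeps2. Map units have no scale outside this map, and distances on a UMAP do not measure differences in expression.

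**Figure D3:**
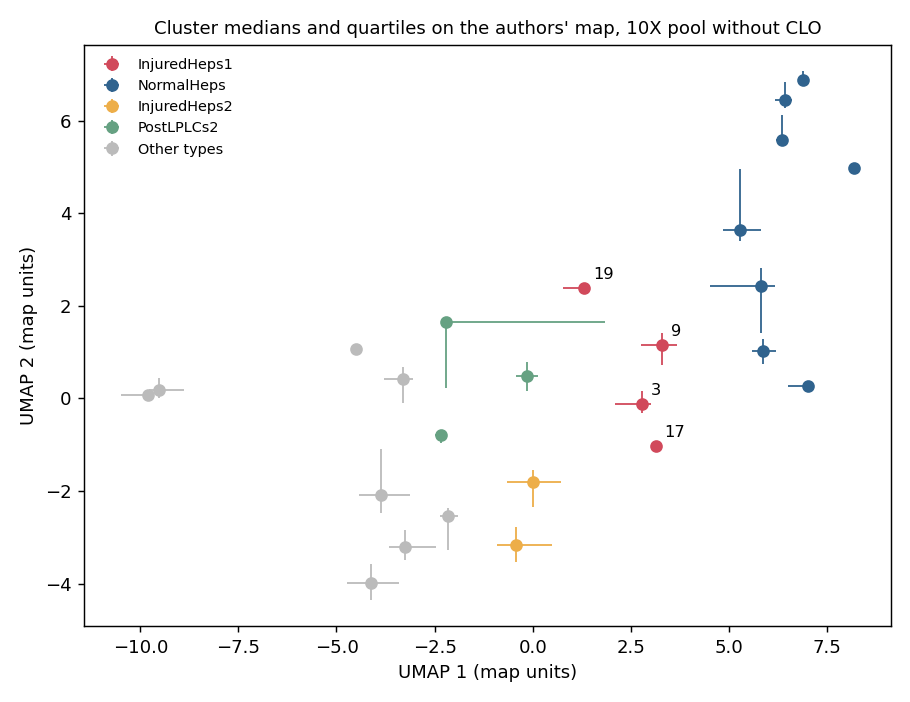
Median position (point) and quartiles (bars) of each of the authors' clusters on UMAP axes 1 and 2, in map units, for cells of the 10X pool without CLO; numbers name the InjuredHeps1 clusters. Clusters 3, 9 and 17 lie close together between NormalHeps and InjuredHeps2, and cluster 19 lies apart from them, at a median of 1.31 on the first axis and 2.39 on the second.

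By the single nearest cell of each type, InjuredHeps1 cells more often lay nearer to NormalHeps than to InjuredHeps2. Of the 965 cells in the pool without CLO, 819 (84.9%, 82.5 to 87.1) lay closer to some NormalHeps cell than to any InjuredHeps2 cell. The share was 98.4% (96.4 to 99.5) in cluster 9, 83.1% (72.3 to 90.9) in cluster 19, 83.0% (74.5 to 89.6) in cluster 17 and 76.4% (72.3 to 80.2) in cluster 3. NormalHeps cells were more numerous in that pool, 1194 against 767 InjuredHeps2 cells. They were also more spread on the map, at a median of 2.02 against 1.10 map units from their own centre. The part of numbers and spread in the result was not tested.

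The InjuredHeps1 cells mostly lay among their own kind. Among the 30 nearest cells on the map, InjuredHeps1 was the commonest name for 930 of 998 cells (93.2%, 91.4 to 94.7), against 91.6% (90.1 to 92.9) of NormalHeps and 82.0% (79.4 to 84.4) of InjuredHeps2 cells with their own name. By cluster, this held for 91.5% of cells in cluster 3, 95.4% in cluster 9, 94.9% in cluster 17 and 92.0% in cluster 19. Of the other 68 InjuredHeps1 cells, 34 lay among NormalHeps, 18 among InjuredHeps2, 9 among PostLPLCs1 and 7 among PostLPLCs2.

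The clusters had different neighbours. InjuredHeps1 cells were 91.6% of the 30 nearest cells of a cluster 17 cell, 88.6% in cluster 9, 86.6% in cluster 3 and 74.8% in cluster 19. In cluster 9 the other neighbours were mainly NormalHeps (8.25%), and in cluster 3 they were NormalHeps (5.18%), PostLPLCs2 (4.04%) and InjuredHeps2 (2.97%). In cluster 17 InjuredHeps2 (3.08%) and NormalHeps (3.02%) were about equal, with PostLPLCs2 at 2.25%. Cluster 19 had NormalHeps (9.64%) and PostLPLCs2 (7.91%) beside it, and fewer LPLCs (2.13%), InjuredHeps2 (1.82%) and ProliHeps (1.69%). Cells of cluster 17 had the largest share of neighbours in another InjuredHeps1 cluster, with 10.8% in cluster 3. In the other direction, 3.11% of the neighbours of cluster 3 cells were in cluster 17. Cluster 3 had 483 cells and cluster 17 had 117, and the part of these sizes was not tested.

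**Figure D4:**
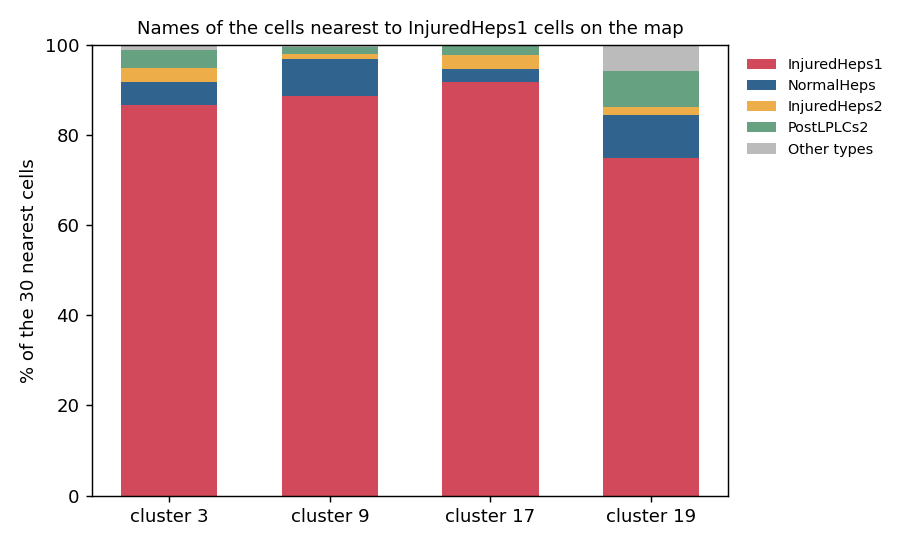
Names of the 30 nearest cells on the map, as a percent of all such neighbours, for the InjuredHeps1 cells of clusters 3, 9, 17 and 19 in all libraries. InjuredHeps1 neighbours run from 74.8% in cluster 19 to 91.6% in cluster 17, and NormalHeps is the next commonest name in clusters 3, 9 and 19.

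InjuredHeps1 cells of the CLO pool stood in other surroundings than those of the pool without CLO. InjuredHeps1 was the commonest name around 9 of 18 cells in the CLO pool (50%, 26.0 to 74.0) and around 911 of 965 in the pool without CLO (94.4%, 92.8 to 95.8). PostLPLCs2 were 29.8% of the neighbours of these cells in the CLO pool and 2.76% in the pool without CLO, and InjuredHeps2 were 13.5% in the CLO pool and 2.04% in the pool without CLO. Around the 15 Smart-seq2 cells, InjuredHeps1 was the commonest name for 10 (66.7%, 38.4 to 88.2), PostLPLCs1 for 3 and NormalHeps for 2. These neighbours were drawn from all libraries, of which the pool without CLO gave most InjuredHeps1 cells, and the part of that in these values was not tested.

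Few cells of other types lay inside the InjuredHeps1 region, taken as the cells for which InjuredHeps1 was the commonest name among the 30 nearest. They were 126 of 5575 cells (2.26%, 1.89 to 2.69), of which 50 were PostLPLCs2 (5.88% of that type, 4.40 to 7.68) and 48 were NormalHeps (2.98%, 2.20 to 3.93). InjuredHeps2 gave 13 cells (1.36%, 0.726 to 2.31), so the region held a larger share of PostLPLCs2 than of the other injured type. The region held 19 CLO cells, 9 of them named InjuredHeps1, and 1026 cells without CLO, 911 of them named InjuredHeps1. As a share of the pool the region was 1.31% (0.793 to 2.04) with CLO and 21.4% (20.2 to 22.6) without CLO. The region was defined by the InjuredHeps1 names, most of them in the pool without CLO. These 2 shares are therefore no separate support for the shares by name.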

How the data were processed

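Single hepatocytes of mice were profiled on 10X and Smart-seq2 platforms, and the values used are the per-cell annotation that the authors deposited. The submitters' processing notes name the build mm10 and, with no role for any, Seurat 4.0.1, Cell Ranger 6.0.1, STAR 2.5.2b, HTSeq 0.6.0, UMI-tools, Trimmomatic 0.36 and cutadapt 1.14. Per the file headers the clusters come from integrated data, and the deposited map positions are a UMAP score with no unit. Integration can place cells of different libraries in a shared cluster. The sources used here do not give cell filters or doublet handling. All annotated cells were kept.

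Groups came from the labels. The cell table names DDC and 1 week for all cells of the 7 Smart-seq2 libraries, day 0 included, and the labels were followed. Cells are not replicates, and with 1 library per 10X arm and 1 at day 0 no p-value was computed. Day 7 libraries are given as mean ± SD; the spread between them may be technical. For a count of 0, the limit is the share that 3 cells would make. The planned gene values were not computed, since no value per gene was used; by the rule for names, every cluster of InjuredHeps1 is given instead. The cell type, the lists and the alternatives were chosen with earlier results of these data known. Nearest cells were taken in the plane of the map, without the cell itself, and ties went to the first name in alphabetical order. Tools were scikit-learn 1.9.0 for nearest cells, scipy 1.17.1 for intervals, pandas 2.3.3, matplotlib 3.10.9 and numpy 2.4.6, under Python 3.11.15.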

Additional observations from a re-analysis of the deposited data

Results flagged for a closer look

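Library Z102, of day 0 and day 7 together, was in neither the CLO nor the day comparison, and its InjuredHeps1 share lay above the 6.98% that the day 0 library's count of 0 allows. InjuredHeps1 were 5 of its 45 cells (11.1%, 3.71 to 24.1), an interval that overlaps that of the day 0 library (0 to 8.22). The share was 18.5% without NormalHeps in the denominator. With each cell given the commonest name among its 30 nearest cells it was 6.67%, under the 6.98% limit, so that the library would then not stand out. InjuredHeps1 was the commonest name among the 30 nearest cells for 3 of these 5 cells, 1 each in clusters 3, 9 and 19. The sources used here do not give the diet day of these 5 cells.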

How the results depend on the processing

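Of 66 alternative values, 62 stayed within the counting interval, the SD between libraries or, for map distances, the SD over cells of the reported value, and 4 moved. A count of 0 changed direction, but many could not: a share per library has no direction. A day 7 share minus the day 0 share of 0 cannot turn negative. Without NormalHeps in the denominator the InjuredHeps1 share of the pool without CLO was 26.8%, and with each cell given the commonest name among its 30 nearest cells it was 21.4%. Within their wide counting intervals, shares of small libraries still shifted by 1.5 times or more under nearest-cell names, to 2.44% in L4, 2.13% in Z103, 2.56% in L3, 7.69% in L5 and 6.67% in Z102, and Z102 had 18.5% without NormalHeps in the denominator. Under nearest-cell names the interval of L5 (upper bound 25.1%) reached up to the 21.4% of the pool without CLO, and that of Z102 (18.3%) did not. With 50 nearest cells, InjuredHeps1 was the commonest name for 89.8% of cluster 9 cells. With only cells of the pool without CLO searched, it was so for 99.1% of cluster 17 cells. The cause of either shift was not tested. The CLO to no CLO ratio ran from 0.0455 without cluster 17 to 0.0720 without cluster 9. The day 7 minus day 0 difference ran from 3.96 to 4.35 percentage points when each day 7 library was left out. Restricting InjuredHeps1 to cells that lay among their own kind, an alternative chosen after seeing the data, ended the separation of the cluster 17 intervals of the pools (22.2% with CLO, 11.5% without CLO). Numbers of InjuredHeps1 cells limit every statement outside the pool without CLO. No paired analysis was possible, since day 0 and each 10X arm were 1 library and the titles do not tie mice to libraries. Batch 1 held day 0 beside day 7 replicates 2 and 3, whose difference from day 0 was 4.35 points. Other weightings of gene values were not run, since no gene value was used.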
